A study of Oryzias latipes with 6 samples.

Results

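A set of 43 genes that were abundant in wild type medaka embryos and moderately lower in SEDL knockout embryos is described here, out of 20459 gene IDs counted and 2578 IDs with a mean of at least 64 CPM in wild type. CPM is the count of a gene per 1000000 counts of its library, taken over the column sum of the deposited table. Members were selected on 3 measured values. Their mean in wild type was at least 64 CPM, their highest knockout CPM was at most 1/2 of their lowest wild type CPM, and their mean knockout CPM was above 1/4 of their mean wild type CPM. The difference between genotypes is therefore what chose them, and it is given as a description with no test.

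The libraries came from embryos of medaka (Oryzias latipes, Cab strain) at Iwamatsu stage 40, as 3 pools knocked out for SEDL and 3 wild type pools. No treatment was given to either genotype, and sex was not determined. The labels give neither the number of embryos in a pool nor the kind of knockout allele. The labels call the pools biological replicates without saying whether they came from separate clutches, so any p-value measures the spread between these pools.

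SEDL, now called TRAPPC2, encodes sedlin, a small subunit of the TRAPP complexes. These complexes activate Rab GTPases and help to tether vesicles that carry cargo from the endoplasmic reticulum to the Golgi and onward. In humans, loss of sedlin causes spondyloepiphyseal dysplasia tarda, a disorder of cartilage growth, and sedlin has been linked to the export of procollagen from the endoplasmic reticulum.

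The table names genes by Ensembl ID alone, and 0 of its IDs were matched to a symbol in the RefSeq gene table used for names, so no function is assigned to any member and the level of SEDL itself is not reported. Tissue markers and pathway lists could not be read for the same reason. Members are called by their rank of mean wild type CPM, from rank 1 to rank 43. Totals were 18962836 to 23393540 counts in knockout libraries and 18499107 to 22178480 in wild type libraries, so the ranges overlapped. The members held 59219 to 77029 counts per knockout library and 167157 to 212498 per wild type library, and the lowest count of any member in any library was 303.

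Together the 43 genes held a small part of each transcriptome, and that part was smaller in every knockout library. Their share of all counts was 0.329%, 0.306% and 0.312% in knockout replicates 1, 2 and 3, against 0.836%, 0.987% and 0.904% in wild type replicates 1, 2 and 3. The means were 0.316% ± 0.0120 in the knockout and 0.909% ± 0.0758 in wild type (SD, n = 3 each), a 2.88-fold lower share and a difference of -0.593 percentage points. The ranges of the genotypes did not overlap, as the choice of members requires. In bulk embryo RNA, fewer cells of a type and less RNA per cell cannot be told apart.

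For scale, another 78 genes met the same minimum and gap but had a mean knockout CPM of at most 1/4 of the wild type mean. Those held 0.226% ± 0.0223 of counts in the knockout and 2.18% ± 0.726 in wild type (SD, n = 3 each), so their wild type share varied more between pools than that of the 43 genes. The rule with the genotypes swapped, which asks for a mean of at least 64 CPM in the knockout, picked 33 genes. These took 0.482% ± 0.0301 of counts in the knockout and 0.164% ± 0.00747 in wild type (SD, n = 3 each). No test was made between these sets, since each was chosen from the same contrast.

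**Figure D1:**
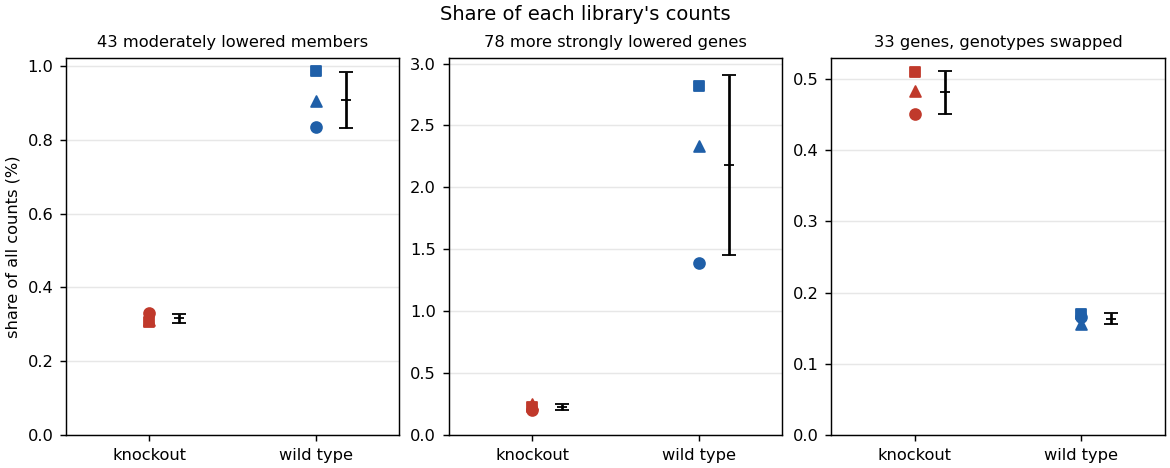
Share of all counts (%) held by the 43 members, by the 78 more strongly lowered genes and by the 33 genes from the rule with genotypes swapped. Circles, squares and triangles are replicates 1, 2 and 3, and bars are the mean ± SD of 3 libraries. The members held 0.306% to 0.329% in knockout libraries and 0.836% to 0.987% in wild type libraries.

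Most members lay in the lower part of the abundant range. Their mean wild type level had a median of 102 CPM and ran from 64.8 to 1489.9 CPM. It lay under 2 times the minimum of 64 CPM for 29 members, at 2 to 4 times for 4, at 4 to 8 times for 7 and above that for the other 3. The lowest class also held 1518 of the 2578 abundant genes. Members made up 1.91% of all genes under 2 times the minimum, 0.687% of those at 2 to 4 times, 2.77% at 4 to 8 times, 0.794% at 8 to 16 times and 2.02% above that. Among all IDs, their places by mean CPM ran from 210 to 8103 in the knockout and from 62 to 2535 in wild type. In the knockout 12 members were among the 2578 most abundant genes, against 43 in wild type, and 32 had a knockout mean under 64 CPM. The 43 in wild type are fixed by the minimum of 64 CPM. For the 29 members under 2 times the minimum, the required gap alone puts the knockout mean under 64 CPM.

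A few genes carried much of the set. The 3 most abundant members held 41.8%, 39.6% and 36.8% of the members' counts in knockout replicates 1, 2 and 3, against 39.2%, 38.7% and 32.4% in wild type replicates 1, 2 and 3. ENSORLG00000012738, at rank 1, had 609.7, 560.2 and 539.8 CPM in knockout replicates 1, 2 and 3, against 1446, 1739.7 and 1284 CPM in wild type replicates 1, 2 and 3. Its mean was 2.61-fold lower in the knockout, which placed it at 210 among all genes there and at 62 in wild type. Wild type replicate 2 was its highest library and the knockout libraries lay close together.

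ENSORLG00000005102, at rank 2, had 434.5, 373.4 and 345.9 CPM in knockout replicates 1, 2 and 3, against 1056, 1214 and 941.3 CPM in wild type replicates 1, 2 and 3. The rank 3 gene had 332.7, 280.2 and 264.0 CPM in the knockout libraries, against 774.4, 867.4 and 702.5 CPM in wild type libraries, in the same order of replicates. All 3 genes were highest in replicate 1 within the knockout and in replicate 2 within wild type, and lowest in replicate 3 of either genotype. Of the 3 pairs among them, ranks 2 and 3 kept the steadiest proportion. The rank 3 gene stood at 0.766, 0.750 and 0.763 of the rank 2 gene in knockout replicates 1, 2 and 3. In wild type replicates 1, 2 and 3 it stood at 0.733, 0.714 and 0.746, below every knockout value. Relative to rank 1, the rank 2 gene ran from 0.641 to 0.713 in the knockout and from 0.698 to 0.733 in wild type. The rank 3 gene ran from 0.489 to 0.546 of rank 1 in the knockout and from 0.499 to 0.547 in wild type. Whether any of these genes share reads was not tested.

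Ranks 4 and 5 were lower by a wider margin than the first 3. The rank 4 gene had 146.2, 118.6 and 141.4 CPM in the knockout, against 454.8, 508.3 and 514.5 CPM in wild type, and its mean was 3.64-fold lower. The rank 5 gene had 114.2, 120.1 and 123.6 CPM in the knockout, against 370.1, 473.4 and 410.0 CPM in wild type, and its mean was 3.50-fold lower. Their highest knockout library stood at 0.321 and 0.334 of their lowest wild type library. Only rank 12, at 0.314, had a wider gap than both, and 9 of the 43 members had a value of 0.4 or less.

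Ranks 6 to 10 came nearer to the limit of the rule. The rank 6 gene had 132.1, 114.7 and 117.2 CPM in the knockout, against 365.1, 386.5 and 274.8 CPM in wild type. The rank 7 gene had 121.6, 139.2 and 127.2 CPM in the knockout, against 285.3, 350.5 and 310.7 CPM in wild type. The rank 9 gene had 116.1, 123.2 and 106.6 CPM in the knockout, against 248.7, 318.8 and 248.8 CPM in wild type. In these 3 genes the highest knockout value was 0.481, 0.488 and 0.496 of the lowest wild type value.

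The rank 8 gene was uneven within both genotypes, with 61.7, 63.4 and 89.6 CPM in the knockout, against 187.4, 321.4 and 314.5 CPM in wild type. Knockout replicate 3 and wild type replicate 1 stood apart from the other libraries of their genotype, and these 2 libraries set its gap of 0.478. The rank 10 gene had 101.0, 85.7 and 87.5 CPM in the knockout, against 208.1, 265.9 and 315.0 CPM in wild type. Its knockout libraries were close together, while its highest wild type library held 1.51 times its lowest.

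**Figure D2:**
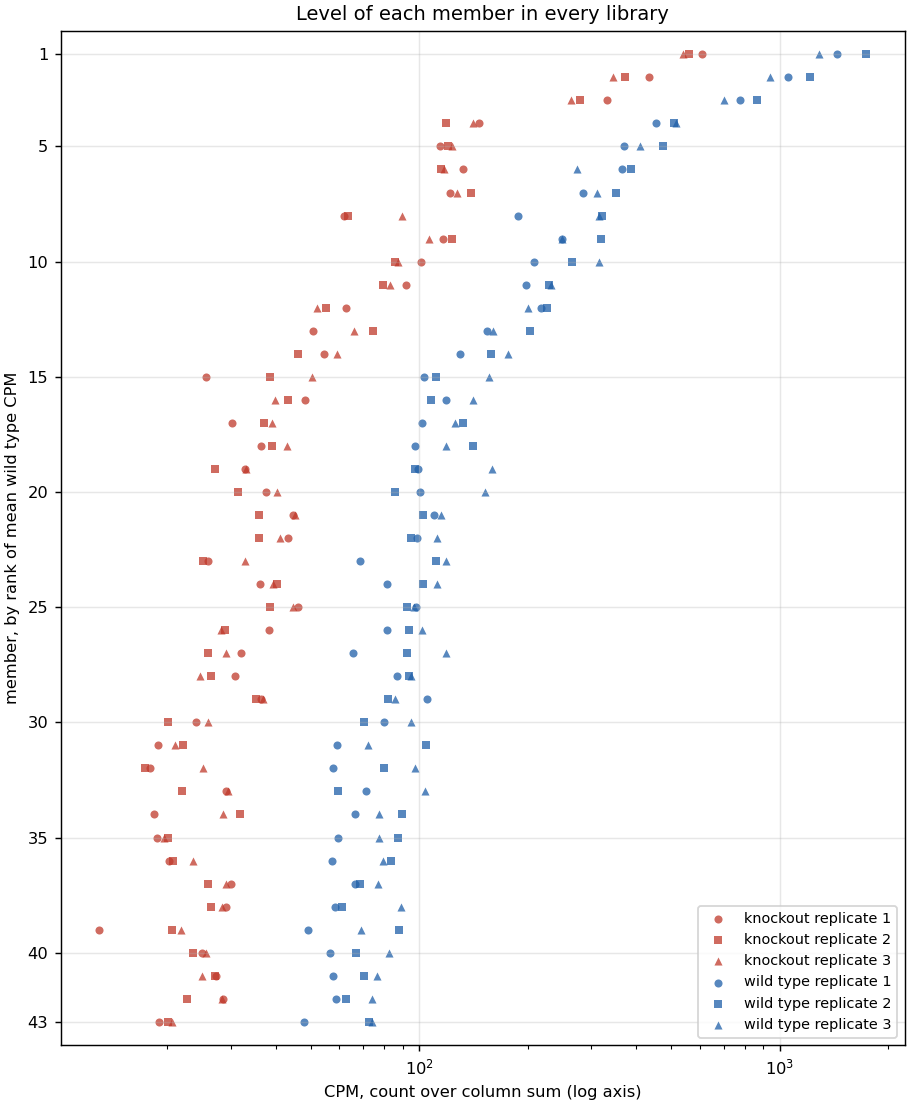
CPM of the 43 members in each library (log axis), 1 row per member from rank 1 at the top, with knockout replicates in red and wild type replicates in blue. Every red point lies left of every blue point in its row, as the rule requires; the gap between the nearest points was narrowest at a ratio of 0.4998 and widest at 0.314.

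Ratios were spread over the lower part of the band that the rule allows and were sparse toward its upper end of 0.5. The condition on the gap holds the mean ratio of a gene with uneven pools below that end, so the rule partly sets this shape. The mean knockout CPM was 0.257 to 0.450 of the mean wild type CPM, with a median of 0.344. There were 14 members under 0.3, 10 from 0.3 to 0.35, 13 from 0.35 to 0.4 and 6 at 0.4 or more, the widest of these classes. The smallest ratios belonged to ranks 32, 35, 8 and 19, at 0.257, 0.260, 0.261 and 0.262. The largest belonged to ranks 25, 9, 7 and 42, at 0.450, 0.424, 0.410 and 0.408. The median ratio was 0.332 for the 29 members under 2 times the minimum level and 0.348 for the 7 members at 4 to 8 times it.

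Many members lay close to the limit on the gap. In 26 of 43 the highest knockout CPM was at least 0.45 of the lowest wild type CPM. The nearest inside were ranks 24, 38 and 25, at 0.4967, 0.4974 and 0.4998. The nearest 3 genes outside stood at 0.501, 0.507 and 0.513, and the first of them had 76.0, 74.0 and 89.2 CPM in the knockout, against 193.8, 178.0 and 206.8 CPM in wild type. At the lower bound on the mean ratio, the nearest members had 0.257, 0.260 and 0.261 and the nearest genes beyond it had 0.244, 0.239 and 0.237. At the minimum of 64 CPM in wild type, the last members averaged 68.2, 65.0 and 64.8 CPM there, and the first genes below it 63.7, 61.6 and 58.6 CPM.

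The edgeR model fitted to all 18011 tested genes gives each member an error. It scales libraries with TMM factors, which set the bulk of genes level between libraries. On that scale the members' log2 fold changes, knockout over wild type, ran from -1.82 to -1.001 with a median of -1.39, and their standard errors from 0.12 to 0.25. All 43 passed the filter on low counts and all 43 were called lower, with edgeR p-values of at most 0.000984 after Benjamini-Hochberg adjustment, where 18.7% of tested genes were called lower and 15.9% higher. The members were chosen on this contrast, so nothing is read from their count.

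Ratios were also taken between knockout and wild type pools of the same number. As a median over members, the knockout pool was 2.52-fold lower than the wild type pool for number 1, 3.11-fold lower for number 2 and 3.16-fold lower for number 3. In log2 units these medians were -1.33, -1.635 and -1.66, and the mean of the 3 ratios of a gene ran from -1.95 to -1.15. By the members' summed share of counts the decrease was instead largest in number 2, at 2.54-fold, 3.22-fold and 2.89-fold for numbers 1, 2 and 3. The ratio of a gene was lowest, the largest decrease, in number 2 for 25 members, in number 3 for 14 and in number 1 for 4. The ratio was highest in number 1, which for a member means the smallest decrease, for 36 of 43 members (83.7%). It was highest in number 1 for 34.9% of the 2535 other genes of at least 64 CPM in wild type, some of which were raised in the knockout. For those other genes the medians were -0.08, -0.09 and -0.08, nearly equal across numbers. The 78 more strongly lowered genes also leaned this way, with the highest ratio in number 1 for 50 of 78 (64.1%) and medians of -2.73, -3.36 and -2.90. No test was made of this difference, since the members were chosen from the same 6 libraries.

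Matching by number narrowed the spread of a member's ratio, and it did so about as often as elsewhere. The SD of the 3 log2 ratios of a member had a median of 0.23, against 0.29 when the variances within the genotypes were added as if unmatched. The matched SD was the smaller of the 2 for 35 of 43 members (81.4%) and for 79.8% of the other abundant genes. Such narrowing follows from the positive correlation of same-numbered pools, for which the numbers were taken as pairs, so it is no separate evidence for the pairing. The steadiest ratio was that of rank 7, from -1.33 to -1.23 in log2 units. The least steady was that of rank 27, at -1.03, -1.84 and -2.03 in numbers 1, 2 and 3, and its wild type levels in these pools were 65.4, 92.6 and 118.5 CPM.

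**Figure D3:**
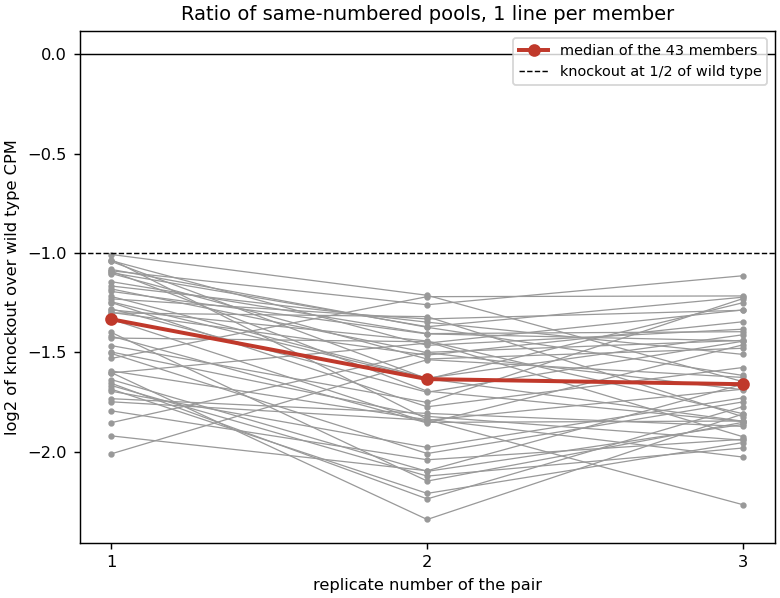
Log2 of knockout over wild type CPM within each replicate number, 1 grey line per member and the median in red. Lines only join the values of a gene, since replicate numbers have no order. Every value lies below -1, as the rule requires, and the medians are -1.33, -1.635 and -1.66 for numbers 1, 2 and 3.

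Across members, deviations from the genotype mean correlated between same-numbered knockout and wild type pools with r = 0.47, 0.61 and 0.47 for numbers 1, 2 and 3. The other 6 pairings gave r from -0.48 to -0.03. For the other abundant genes the same-numbered values were 0.67, 0.68 and 0.51. These are descriptions over 43 and 2535 genes that share the same 6 libraries. Deviations from a mean of 3 sum to 0, which by construction draws the other pairings below 0.

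A direct comparison of the replicate numbers, with genotype held in the model, does not use the contrast that chose the members. It called 3 of 43 members, against 4.18% of all tested genes and 8.49% of genes of at least 64 CPM in wild type (quasi-likelihood F test in edgeR, p under 0.05 after Benjamini-Hochberg adjustment). The members' share is near these backgrounds. At an unadjusted p under 0.05 the same edgeR test gave 15 members and 844 of the 2578 abundant genes, and DESeq2 called 5 members and 361 abundant genes, against 219 abundant genes in edgeR. The rule also bounds the spread that a member can have, so the comparison is not wholly free of it. Counts of genes called by the replicate number test may also be too high, as described with the processing.

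The 3 called members were ranks 15, 34 and 39. The rank 15 gene had 25.5, 38.4 and 50.5 CPM in the knockout, against 102.9, 111.5 and 155.9 CPM in wild type, lowest in number 1 and highest in number 3 of both genotypes (edgeR adjusted p = 0.0314). The rank 34 gene had 18.4, 31.7 and 28.5 CPM in the knockout, against 66.5, 89.8 and 77.4 CPM in wild type, with number 2 highest in both (edgeR adjusted p = 0.0493). The rank 39 gene had 13.0, 20.5 and 21.8 CPM in the knockout, against 49.1, 87.9 and 69.0 CPM in wild type, with number 1 lowest in both (edgeR adjusted p = 0.0206). Each of these 3 genes had knockout values far below its wild type values within every number, as the rule requires of every member.

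Wild type pools were less alike than knockout pools for 31 of the 43 members. The coefficient of variation (SD over mean of 3 pools) had a median of 9.71% in the knockout, with a range of 2.38% to 32.7%, and a median of 15.2% in wild type, with a range of 3.19% to 31.2%. The same order held for the other abundant genes, at medians of 8.35% in the knockout and 12.3% in wild type. Counting error alone would give the members a median of 3.62% in the knockout and 2.18% in wild type. The measured value was under 2 times its counting error for 11 of 43 members in the knockout and 1 of 43 in wild type. The rule keeps out genes with a very low wild type library or a very high knockout library, and no member reached a ratio of 2 between its highest and lowest pool within a genotype. The 78 more strongly lowered genes had medians of 24.8% in the knockout and 29.2% in wild type.

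The spread within wild type had a direction. Wild type replicate 1 was the lowest wild type pool for 29 of 43 members (67.4%), against 31.2% of the other abundant genes and 92.3% of the 78 more strongly lowered genes. It stood at a median of 0.886 of the wild type mean of a member, where replicates 2 and 3 stood at 1.03 and 1.08. Within the knockout the medians were 1.03, 0.959 and 1.03 for replicates 1, 2 and 3, and no pool was lowest for more than 20 members. Without wild type replicate 1 the rule took 84 genes, 36 of them among the 43. Leaving out any library can only loosen the gap, and leaving out another library gave 48 to 64 genes. What set wild type replicate 1 apart was not tested.

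Examples show both ends of the wild type spread. The widest belonged to ranks 27, 39, 20 and 31, with a highest pool at 1.81, 1.79, 1.79 and 1.76 times the lowest. The rank 20 gene had 37.4, 31.3 and 40.2 CPM in the knockout, against 100.8, 85.5 and 152.7 CPM in wild type, with replicate 3 highest in both genotypes. The rank 31 gene had 18.8, 22.1 and 21.0 CPM in the knockout, against 59.3, 104.3 and 71.9 CPM in wild type, with replicate 2 highest in both. The narrowest belonged to ranks 25, 28, 21 and 4, at 1.06, 1.09, 1.12 and 1.13. The rank 25 gene had 46.1, 38.5 and 44.7 CPM in the knockout, against 98.2, 92.3 and 96.7 CPM in wild type, the smallest mean difference of the set at 2.22-fold.

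**Figure D4:**
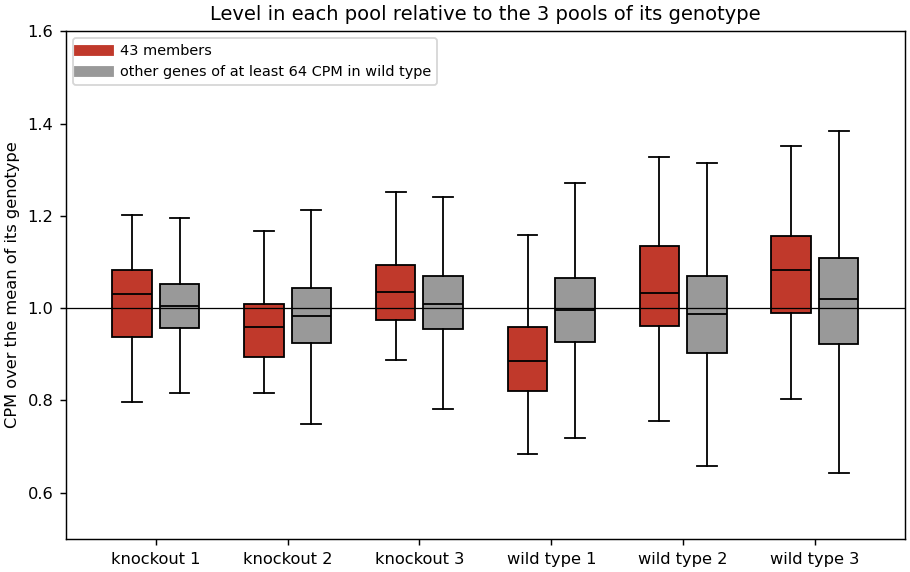
CPM in each pool over the mean of the 3 pools of its genotype, for the 43 members in red and for other genes of at least 64 CPM in wild type in grey. Boxes span the quartiles, the line is the median, whiskers reach the last value within 1.5 times the box, and points beyond are not drawn. The members' median is 0.886 in wild type replicate 1, and the other pools lie between 0.959 and 1.08.

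With TMM factors, these decreases ran against the direction of most called genes of similar abundance when calls of any size were counted. By column sums the order was the reverse for genes chosen on wild type and counted by full separation of the genotypes, which is another class and another measure. Of the 2578 genes of at least 64 CPM in wild type, 863 (33.48%) had every knockout library below every wild type library. Every knockout library lay above every wild type library for 535 (20.75%). At a 2-fold gap the numbers were 121 lower and 12 higher. A minimum set on wild type alone favours decreases in these counts. With the minimum of 64 CPM set on the knockout instead, 64 genes were higher at a 2-fold gap. Of 2521 genes with a mean of at least 64 CPM over all 6 libraries, 710 were called higher and 376 lower in the knockout by the edgeR test with TMM factors, or 28.2% and 14.9%. At 2-fold or more, the size that every member reached, this class was nearly even, with slightly more genes higher than lower. The class holds 24 of the 43 members, which are 6.38% of its lower calls. Of the 500 most abundant genes 181 were called higher and 66 lower, but at 2-fold or more the numbers were 30 higher and 25 lower. Of the 100 most abundant genes 43 were called higher and 10 lower, and 1 of the 10 is a member, at rank 1. The 43 higher calls became 26 without knockout replicate 1, 24 without knockout replicate 2 and 66, beside 13 lower, with the replicate number as a block. These 100 genes took 33.2% ± 0.860 of counts in the knockout and 29.4% ± 0.801 in wild type (SD, n = 3 each).

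The lean of abundant genes depended on how libraries were scaled. With upper quartile factors the class of 2521 genes held 576 higher and 449 lower genes. Its median log2 ratio was 0.14 with TMM factors and -0.01 with column sums. With the trend of each library against abundance removed, the class held 455 higher and 527 lower genes and the top 100 held 20 of each. Removing that trend levels genes of like abundance between libraries by construction, so nothing is read from this near balance. By column sums the median was 0.107 for the 100 most abundant genes over all 6 libraries, 0.094 for the 500 and 0.051 for the 1000 most abundant. Column sums set the median tested gene at -0.16 and TMM factors set it at -0.01, a shift of the whole table. The members' medians, -1.54 by column sums and -1.39 with TMM, differed by the same shift.

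Which genes met the rule changed with that shift. With TMM-scaled CPM 20 of the 43 members kept the 2-fold gap and 19 met all 3 conditions, and none of ranks 1 to 3 was among the 19. The highest knockout CPM was then 0.358 to 0.576 of the lowest wild type CPM, with a median of 0.505, and every knockout value still lay below every wild type value in all 43 genes. Another 8 genes entered from those more strongly lowered, which made 27. With genotypes swapped the rule took 53 genes on that scale, so that moderate increases outnumbered moderate decreases there, 53 to 27, where column sums gave 33 to 43. RLE factors gave 54 and 26, and upper quartile factors 41 and 29.

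**Figure D5:**
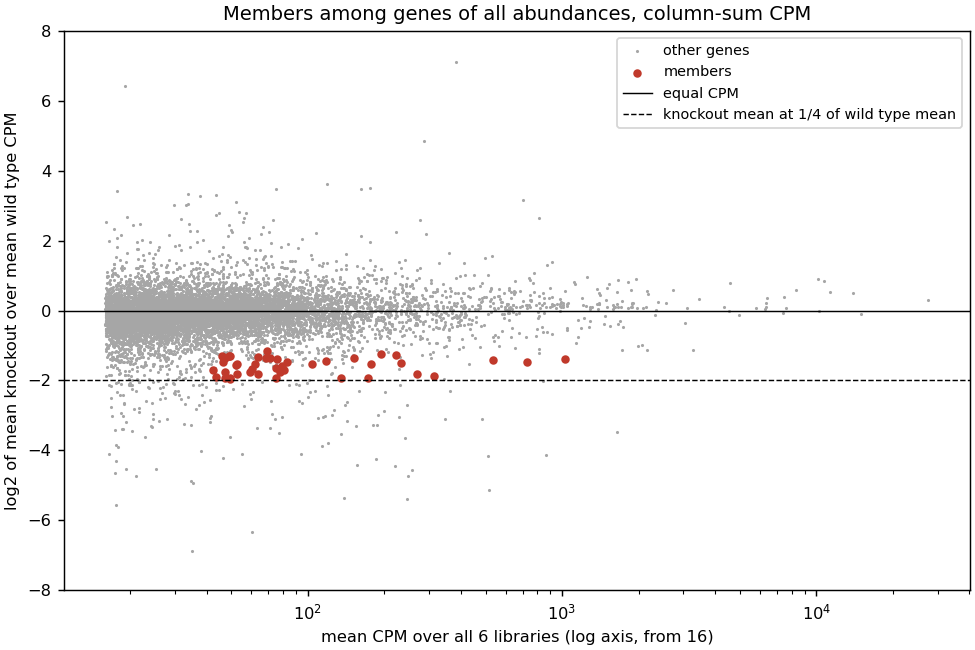
Log2 of mean knockout over mean wild type CPM (column sums) against mean CPM over all 6 libraries (log axis, from 16), with the 43 members in red and other genes in grey. The dashed line at -2 is the lower bound of the rule; members lie between ratios of 0.257 and 0.450, and the median of genes from 64 CPM upward is -0.01.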

How the data were processed

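The data were pooled-embryo RNA libraries, for which the labels' protocols name TruSeq reagents and 500 ng of total RNA. The authors deposited 1 table of raw counts per Ensembl gene ID, with 1 column per library, which library codes in the labels tie to samples, and 0 further columns of sample values. The submitters' processing notes name STAR, an aligner, and mm10, a mouse build, although every ID belongs to the medaka series, so no coordinates are given. The counting tool, use of strand and treatment of reads with several matches are not stated in the labels or notes, so genes that share reads could not be marked.

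CPM used column sums of the deposited counts. Knockout was compared with wild type by edgeR 4.0.16 in R 4.3.3 (filterByExpr with a minimum count of 10, TMM factors, robust quasi-likelihood test, no covariates), calling Benjamini-Hochberg adjusted p under 0.05. Standard errors are the size of the log2 fold change over the square root of F. The replicate numbers were compared in a model with genotype, which leaves 2 residual degrees of freedom. Both fits were tested on simulated data, with a single data set for each, so the shares of false calls are rough. There, false calls made up a larger share of the replicate number test's calls than the threshold of 0.05 allows. For the genotype test the share was slightly above that threshold. The simulated libraries were drawn independently and had fewer changed genes than were called here, so these shares need not carry over. The replicate number test's counts of called genes may be too high, which the simulation cannot settle. DESeq2 1.42.0 was an alternative.

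Titles number the pools alike in both genotypes. Deviations from the genotype means correlated at 0.35 to 0.43 between same-numbered pools over 18011 genes, so the numbers were taken to pair the pools. The main test of genotype did not use this pairing, and the fit with the replicate number as a block did. No 2 pools of a genotype agreed within sampling noise (chi-square per degree of freedom of at least 17.3). The members, lists and tests were chosen with earlier results of these data known. The rule for named genes, where IDs have no symbols, prints the IDs of ranks 1 and 2 and describes by rank those to 10, the 4 smallest and largest ratios and the 4 widest and narrowest wild type ranges; ranks 12, 15, 34 and 39 and the genes next to the limits are named beside counts, after their values were seen.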

Additional observations from a re-analysis of the deposited data

How the results depend on the processing

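Each change to the rule redefined the set, and the direction was fixed by construction in each. The set of 43 genes, with 0.316% of counts in the knockout, 0.909% in wild type and a median same-number log2 ratio of -1.53, became 27 genes with 0.102%, 0.362% and -1.74 by TMM scaling. By RLE scaling it became 26 genes with 0.101% and 0.355%, and upper quartile scaling gave 0.155% and 0.495%. A minimum of 32 CPM gave 86 genes with 0.379% and 1.10%, and a minimum raised by the same factor gave 14 genes with 0.229% and 0.648%. A gap of 1/1.5 gave 157 genes with 1.79%, 4.12% and -1.24, and a gap of 1/2.5 gave 9 genes with 0.0468%, 0.169% and -1.87. Without the bound on the mean ratio there were 121 genes with 0.542%, 3.09% and -2.37. A minimum on the mean over all 6 libraries, chosen after seeing the data, gave 24 genes with 0.268% and 0.760%. Leaving out 1 library gave 48 to 84 genes, with a knockout share of 0.340% to 0.705% and a wild type share of 0.967% to 1.93%. A rise is built into the rule here, since dropping a library can only lower or keep the ratio of highest knockout to lowest wild type CPM. The shares moved by over 1.5 times without wild type replicate 1 (0.705% and 1.93%), knockout replicate 1 (0.583% and 1.60%) and wild type replicate 3 (0.577% and 1.57%), the number of genes only without wild type replicate 1 (84). Thinning to the lowest total gave 44 genes, 42 of them shared.

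All 43 members were called lower in each of the 13 other fits. The members were chosen on the contrast that these fits test, so nothing is read from that count. Over all genes, 2486 to 4473 were called lower in the other fits, of 17384 to 19964 tested. These fits called 4400 to 8720 genes in all, against 6223, with 8720 when the replicate number was a block (replicate block), 4247 higher and 4473 lower against 2857 and 3366, and with 1021 higher and 503 lower against 710 and 376 in the class of 2521 genes. The block changed no member's call, and the median of the members' standard errors was 0.109 with it, against 0.148 in the main fit. The replicate number test called 753 genes, and 812 to 1029 under its 3 alternatives. The number of pools limits precision, and for 11 members the knockout spread was under 2 times counting error.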

Other observations

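The 33 genes picked with the genotypes swapped had pools about as even as the members' knockout pools. Their coefficient of variation had a median of 9.14% in the knockout and 9.81% in wild type. Knockout replicate 1 was their lowest knockout pool for 17 of 33 genes (51.5%), and wild type replicate 3 their lowest wild type pool for 17 of 33. Among the 2578 genes of at least 64 CPM in wild type, these pools were lowest for 28.4% and 31.6%. The swapped rule bounds the lowest knockout and the highest wild type pool, so it can shape this order, and no test was made. Wild type replicate 1 was the lowest for 8 of 33, against 29 of the 43 members. With every library thinned to the lowest total, the swapped rule took 36 genes.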
